A study of Homo sapiens with 6 samples.

Results

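The 9 genes described here encode enzymes of the tricarboxylic acid (TCA) cycle and were chosen by name, 1 or more for most of its reactions: CS, IDH2, IDH3A, OGDH, DLST, SUCLG1, SDHA, FH and MDH2. All 9 were found, each as 1 row, among the 61806 genes of the count table. The data were RNA-seq read counts of total RNA from MV4-11, an established human acute myeloid leukemia line that carries an internal tandem duplication of FLT3. One group of 3 libraries came from cells labelled shNC, a non-targeting short hairpin RNA, and the other group of 3 from cells labelled shATGL, a hairpin against ATGL (gene symbol PNPLA2), the lipase that starts the breakdown of stored triglycerides. Both groups were the same line, transduced with lentivirus and selected with puromycin according to the study's methods, and the labels do not say which hairpin sequence each library carried or whether the libraries came from separate cultures. P-values therefore measure the spread between these libraries, which may be technical.

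The TCA cycle runs in the mitochondrial matrix. Acetyl-CoA, made from pyruvate or from the oxidation of fatty acids, is joined to oxaloacetate to form citrate, which is then oxidized stepwise back to oxaloacetate while NADH and reduced flavin are passed to the respiratory chain. Leukemic blasts depend on mitochondrial respiration, and IDH2 is among the genes recurrently mutated in acute myeloid leukemia.

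The libraries held 59674064 to 74808280 counts, with 7.54, 7.41 and 8.17% on mitochondrially encoded genes in shNC and 6.34, 6.51 and 7.66% in shATGL. PNPLA2, the hairpin's target, was measured at 101.1, 97.0 and 107 CPM (counts scaled to a common library size after composition normalization) in the shNC libraries and at 102, 98.1 and 104 CPM in the shATGL libraries, so the transcript was not lower in the group labelled shATGL (log2 fold change -0.01, adjusted p = 0.979 by edgeR's quasi-likelihood test). Directions below are therefore given for the libraries labelled shATGL. All 5 myeloid leukemia markers were present (CD33, SPI1, LYZ, HOXA9 and MEIS1), summing to 1264 to 1369 CPM in shNC and 1157 to 1238 CPM in shATGL. Of 10 markers of T, B, erythroid, epithelial and fibroblast cells, 7 had no count in any library, and their sum was 1.24 to 1.48 CPM in shNC and 1.27 to 1.78 CPM in shATGL. The third shATGL library stood apart. The counts of shATGL 1 and shATGL 2 differed with a chi-square of 12.3 per degree of freedom, against 84.0 and 87.6 for shATGL 3 with either of them. Among the shNC libraries it was 11.3 for shNC 1 with shNC 2, and 21.3 and 26.2 for shNC 3 with either of them. Results that rest on shATGL 3 are also given without it.

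The promoter windows of the set differed in the motifs they hold. RefSeq windows of GRCh38.p14, from 250 bases before to 50 bases after the start, were found for 8 of the 9 genes, all but OGDH. Those of 3 genes are shown, 1 for each class of motif found: FH for GC and CCAAT boxes, SDHA for repeats of the NRF1-type motif and MDH2 for the ETS-type motif. The windows lie at chr1:241519706-241520005 on the minus strand for FH, chr5:218070-218369 on the plus strand for SDHA and chr7:76047856-76048155 on the plus strand for MDH2. Capitals mark motif matches, on either strand.
FH: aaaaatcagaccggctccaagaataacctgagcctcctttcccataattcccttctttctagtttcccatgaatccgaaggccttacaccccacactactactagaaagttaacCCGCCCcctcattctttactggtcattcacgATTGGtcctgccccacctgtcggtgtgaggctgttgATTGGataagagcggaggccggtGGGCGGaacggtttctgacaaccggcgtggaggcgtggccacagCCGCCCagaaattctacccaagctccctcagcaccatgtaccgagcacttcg
SDHA: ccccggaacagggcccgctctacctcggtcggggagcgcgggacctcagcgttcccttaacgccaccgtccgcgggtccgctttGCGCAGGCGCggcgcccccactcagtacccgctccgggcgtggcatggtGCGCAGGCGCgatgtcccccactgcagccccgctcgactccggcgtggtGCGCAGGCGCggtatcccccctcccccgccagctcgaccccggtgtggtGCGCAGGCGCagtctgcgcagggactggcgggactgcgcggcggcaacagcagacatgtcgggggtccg
MDH2: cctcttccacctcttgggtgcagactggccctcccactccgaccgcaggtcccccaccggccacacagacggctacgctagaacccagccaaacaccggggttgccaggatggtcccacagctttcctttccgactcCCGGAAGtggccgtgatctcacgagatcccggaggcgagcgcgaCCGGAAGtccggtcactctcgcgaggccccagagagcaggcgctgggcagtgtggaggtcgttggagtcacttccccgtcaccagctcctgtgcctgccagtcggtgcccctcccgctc

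The GC box (GGGCGG) was found in 4 of the 8 windows, those of CS, IDH3A, DLST and FH, and in 44.6% of all 27305 promoters of this length. The NRF1-type motif (GCGCA, any base, then GCGC) was found in IDH3A, with 1 match, and in SDHA, where the 4 capitalized stretches are all this motif. It occurs in 6.3% of all promoters. The ETS-type motif (CCGGAAG) was found in DLST and MDH2, with 2 matches in the MDH2 window shown, and in 10.7% of all promoters. CCAAT was found in CS, SUCLG1 and FH, and in 35.7% of all promoters. TATAAA was found in none of the 8 windows and in 12.0% of all promoters. These matches describe letters and not bound sites. The RefSeq start behind the window lay 765 bases from the outermost GENCODE start for SUCLG1, 1883 bases for IDH2 and 17864 bases for IDH3A. Which annotated start these cells use most was not tested.

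Across the 9 genes, shATGL libraries differed little from shNC libraries. In such bulk libraries, fewer cells of a kind and less RNA per cell cannot be told apart. The fitted level was lower in shATGL for 8 genes and higher for 1, OGDH, with a median log2 fold change of -0.08 beside 0.01 over the 19149 genes tested. A log2 fold change below 0 was seen in 48.1% of all genes tested. None of the 9 reached an adjusted p under 0.05 by edgeR (lowest adjusted p = 0.392) or by DESeq2, where 0.429% of all genes did. IDH2 and FH did so by limma voom, 2 of the 9, beside 10.8% of all genes. That fit used quality weights, which can give less weight to a library that stands apart. In the edgeR fit 1 gene of all those tested, 0.00522%, passed an adjusted p under 0.05, a gene the annotation lists only as ENSG00000258790. At an unadjusted p under 0.05 edgeR counted 2 of the 9, IDH2 and FH, both lower in shATGL. At that level stood 11.7% of all genes, 5.94% lower and 5.77% higher. DESeq2 counted 1 of the 9 there (12.7% of all genes), limma voom 4 (30.6%) and edgeR with the replicate number as a block 4 (16.6%). The same 2 genes were those whose shATGL values all lay below all shNC values, as did those of 9.38% of all genes. Groups did not overlap in either direction for 17.3% of all genes. The 95% confidence intervals of the 9 levels in shATGL ran from 75.8 to 115% of the shNC level.

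**Figure D1:**
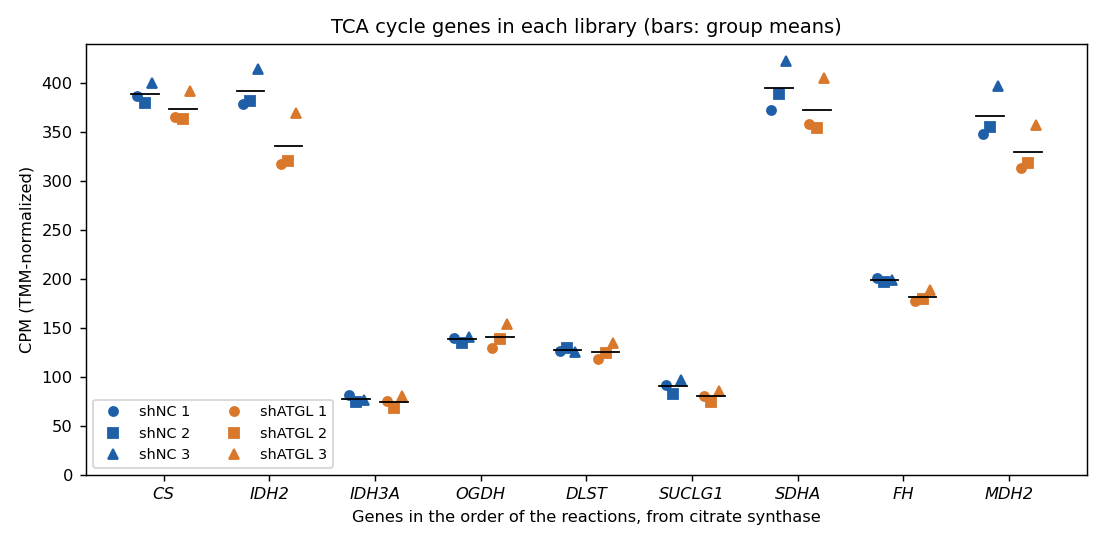
Level of each of the 9 genes in each library, in composition-normalized CPM, with the genes in the order of their reactions along the horizontal axis, shNC libraries in blue, shATGL libraries in orange, a marker shape for each library number and a bar at the group mean. The groups separate for IDH2 and FH, and the third shATGL library (triangle) is the highest orange point for all 9 genes.

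CS makes citrate from acetyl-CoA and oxaloacetate, the entry to the cycle. The gene (ENSG00000062485, chromosome 12, 56271699 to 56300392, minus strand of GRCh38) was measured at 387, 379.9 and 401 CPM in shNC and at 365, 363 and 393 CPM in shATGL. The first 2 shATGL libraries lay below all shNC libraries and the third lay among them. Its log2 fold change was -0.06 with a standard error of 0.06 (adjusted p = 0.692 by edgeR). CS shares exon sequence with AC073896.1, which had 0 to 90 counts a library, and with the antisense gene AC073896.2, which had 285 to 421.

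Isocitrate is oxidized to 2-oxoglutarate in the matrix by 2 different enzymes, an NADP-dependent one encoded by IDH2 and an NAD-dependent one whose catalytic subunit is IDH3A. IDH2 (ENSG00000182054, chromosome 15, 90083045 to 90102504, minus strand) was measured at 379, 381 and 415 CPM in shNC and at 318, 321 and 369.8 CPM in shATGL. Every shATGL library lay below every shNC library, and shATGL 3 lay close under them. The level in shATGL was 85.8% of that in shNC, with an interval of 75.8 to 97.1%, the lowest of the 9 (log2 fold change -0.22, standard error 0.08). This gave p = 0.0215 before and 0.392 after adjustment in edgeR, and an exact permutation p of 0.1, the smallest that the 20 ways of dividing 6 libraries allow. IDH3A (ENSG00000166411, chromosome 15, 78131498 to 78171949, plus strand) was measured at 81.3, 74.8 and 76.8 CPM in shNC and at 74.9, 68.6 and 80.4 CPM in shATGL. These groups overlapped, with a log2 fold change of -0.06 and a standard error of 0.08 (adjusted p = 0.786 by edgeR). CIB2 and ACSBG1, which overlap IDH3A exons on the opposite strand, had 12 to 72 counts a library.

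The next reaction, from 2-oxoglutarate to succinyl-CoA, is run by a complex of which OGDH is the dehydrogenase and DLST the succinyl transferase. OGDH (ENSG00000105953, chromosome 7, 44606572 to 44709066, plus strand) was measured at 139.6, 135 and 141 CPM in shNC and at 129, 139 and 155 CPM in shATGL. The shATGL values spanned the shNC values on both sides, and the fit gave a log2 fold change of 0.02 with a standard error of 0.08 (adjusted p = 0.918 by edgeR). DLST (ENSG00000119689, chromosome 14, 74881891 to 74903745, plus strand) was measured at 127, 129.5 and 125 CPM in shNC and at 118, 125 and 135 CPM in shATGL. It too had shATGL libraries on both sides, with a log2 fold change of -0.02 and a standard error of 0.07 (adjusted p = 0.941 by edgeR). The sign of both genes turned with the processing: OGDH was lower in shATGL without shATGL 3 (-0.05 on the log2 scale), and DLST was higher (0.01) once trends with coding length were removed.

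SUCLG1 encodes the alpha subunit of succinyl-CoA ligase, which makes a nucleoside triphosphate as it releases succinate. It (ENSG00000163541, chromosome 2, 84423523 to 84460045, minus strand) was measured at 91.7, 82.6 and 97.3 CPM in shNC and at 80.1, 74.8 and 85.9 CPM in shATGL. The groups overlapped only through shNC 2 and shATGL 3. Its log2 fold change was -0.17 with a standard error of 0.08 (adjusted p = 0.462 by edgeR).

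SDHA is the flavoprotein of succinate dehydrogenase, the enzyme that also serves as complex II of the respiratory chain. It (ENSG00000073578, chromosome 5, 218241 to 256700, plus strand) was measured at 373, 389 and 422 CPM in shNC and at 359, 355 and 405 CPM in shATGL. The first 2 shATGL libraries lay below all shNC libraries and the third lay among them, with a log2 fold change of -0.08 and a standard error of 0.08 (adjusted p = 0.676 by edgeR). Reads of SDHA can be split with its pseudogenes, which summed to 1582 to 2436 counts, or 5.90 to 9.04% of the SDHA counts. The pseudogene share was 9.04 and 8.97% in shATGL 1 and 2 and 5.90 to 7.00% in the other 4 libraries. SDHA and its pseudogenes together were at 398, 416 and 447 CPM in shNC and 391, 387 and 431 CPM in shATGL, so the first 2 shATGL libraries again lay below all shNC libraries. Pseudogenes of CS and DLST (CSP1, CSP2, DLSTP1) had no count in any library, and FHP1 had at most 5.

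FH hydrates fumarate to malate. The gene (ENSG00000091483, chromosome 1, 241497603 to 241519761, minus strand) was measured at 201, 197 and 199 CPM in shNC and at 178, 179.6 and 188 CPM in shATGL. Every shATGL library lay below every shNC library, and the 3 shNC libraries lay within a few CPM of each other. The level in shATGL was 91.3% of that in shNC, with an interval of 83.8 to 99.5% (log2 fold change -0.13, standard error 0.05). edgeR gave p = 0.0399, adjusted p = 0.411, and the exact permutation p was again 0.1.

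MDH2 oxidizes malate to oxaloacetate and closes the cycle. The gene (ENSG00000146701, chromosome 7, 76048051 to 76067508, plus strand) was measured at 348, 356 and 397 CPM in shNC and at 313, 319 and 357 CPM in shATGL. Only shATGL 3 reached into the shNC range. Its log2 fold change was -0.15 with a standard error of 0.08 (adjusted p = 0.473 by edgeR), and the level in shATGL was 89.9% of that in shNC with an interval of 79.4 to 102%.

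Several of these values rested on the third shATGL library. It was the highest of the 3 shATGL libraries for 9 of 9 genes, where it was the highest for 42.2% of all genes tested. It lay below all shNC libraries for IDH2 and FH, among them for CS, IDH3A, SUCLG1, SDHA and MDH2, and above them for OGDH and DLST. shATGL 1 and shATGL 2 both lay below every shNC library for 7 genes, all but IDH3A and OGDH, as they did for 24.1% of all genes. When shATGL 3 was left out, 2 of the 9 passed an adjusted p under 0.05 in edgeR, IDH2 at -0.30 on the log2 scale (adjusted p = 0.0139) and FH at -0.16 (adjusted p = 0.0459). In that fit 14% of all genes passed. At an unadjusted p under 0.05 SUCLG1, SDHA and MDH2 joined them, 5 of 9, where 28.8% of all genes passed. Leaving out shNC 3, shATGL 1 or shATGL 2 instead left 0 of the 9 at that level. All genes there were 1113 of 19956, 1052 of 19821 and 1021 of 19742. The summed level of the 9 genes was 2127, 2125 and 2274 CPM in shNC, 1935 and 1945 CPM in shATGL 1 and 2, and 2169 CPM in shATGL 3. The share of counts on mitochondrially encoded genes had a like order, lower in shATGL 1 and 2 (6.34 and 6.51%) than in shATGL 3 (7.66%) and the shNC libraries (7.41 to 8.17%), and its part in the result was not tested.

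All 36 pairs of the 9 genes had a positive Pearson correlation of log2 CPM over the 6 libraries, with a median of 0.62 and 13 pairs above 0.8. The most alike pair was IDH2 and MDH2 (0.97) and the least alike OGDH and FH (0.23). The 6 points of each pair share the same libraries and their normalization, including shATGL 3, so these values describe the libraries. Of the 9288 genes with a mean of at least 10 CPM outside the set, those most like the mean of the 9 over the 6 libraries were SLC25A22 (Pearson r = 0.9994), a mitochondrial glutamate carrier, ARPC1B (0.9994), a subunit of the actin-nucleating Arp2/3 complex, and COPZ1 (0.999), a subunit of the coatomer. SLC25A22, for example, stood at 48.2, 46.7 and 51.5 CPM in shNC and 41.4, 40.9 and 49.3 CPM in shATGL. SLC25A22, ARPC1B and COPZ1 were picked as the highest of 9288 r values over only 6 libraries, so values near 1 partly reflect the choice. A shared function was not tested.

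**Figure D2:**
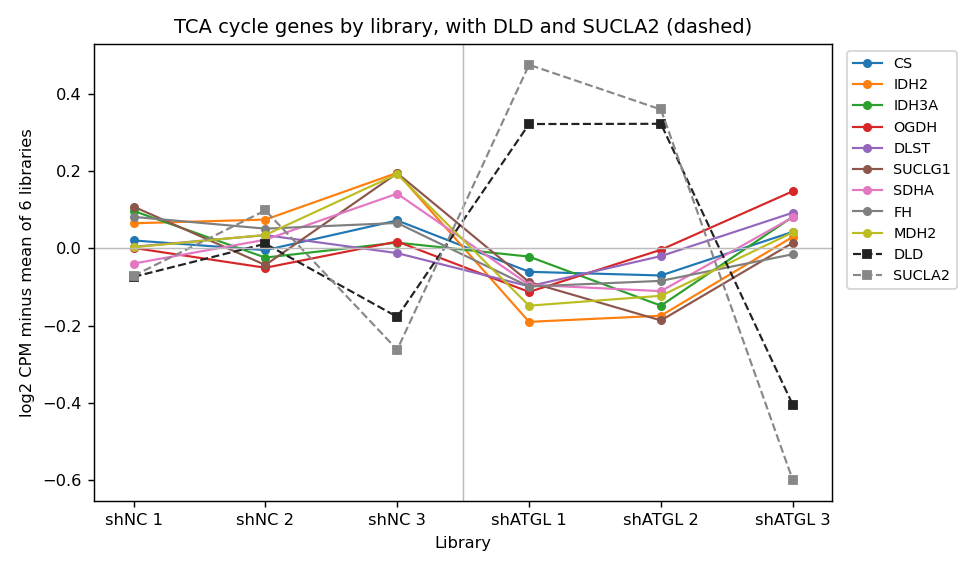
Log2 CPM of each of the 9 genes in each library, minus that gene's mean over the 6 libraries, with DLD and SUCLA2 as dashed lines. Lines only join the points of a gene, since libraries have no order. The 9 genes are at their highest shATGL value in shATGL 3, where DLD and SUCLA2 are at their lowest.

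To compare the steps with each other, CPM was divided by gene length in kilobases. Per kilobase of the union of annotated exons, the mean shNC level was highest for IDH2 (139 ± 7.11, SD, n = 3), followed by MDH2 (100.7 ± 7.19) and FH (93.1 ± 0.983). CS (60.8 ± 1.66) and SDHA (47.1 ± 3.03) were intermediate. DLST (28.0 ± 0.459), OGDH (26.6 ± 0.648), SUCLG1 (21.1 ± 1.74) and IDH3A (11.4 ± 0.489) were the lowest. Over the 6 libraries the ranges of neighbours in this order overlapped for MDH2 with FH and for DLST with OGDH, and were separate for the other 6 neighbouring pairs. The highest level was 12.2 times the lowest in shNC and 10.9 times in shATGL.

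The order depended in part on the length used. With the longest annotated transcript the span narrowed to 8.83 times in shNC and MDH2 (166 ± 11.9) stood first, with overlapping ranges down through IDH2 (145 ± 7.43), SDHA (132 ± 8.45) and CS (127 ± 3.47). With the longest coding sequence the span was 8.13 times, MDH2 (362 ± 25.8) again stood first and OGDH (44.5 ± 1.09), which has the longest coding sequence of the set, stood last. Under all 3 lengths MDH2 and IDH2 were the 2 highest in shNC and IDH3A, OGDH, DLST and SUCLG1 the 4 lowest. Among the 9, the 4 lowest transcripts were thus those of the consecutive steps from isocitrate, by the NAD-dependent route, through succinyl-CoA to succinate. The ranking covers these subunits only. SDHC, another subunit of the next step, stood in shNC at 10.8 per kilobase of exon union. Per kilobase of longest transcript it stood at 11.2, and of longest coding sequence at 301. IDH2, the NADP-dependent enzyme, was at 379 to 415 CPM in shNC beside 74.8 to 81.3 CPM for IDH3A, genes whose longest coding sequences are 1356 and 1098 bases.

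**Figure D3:**
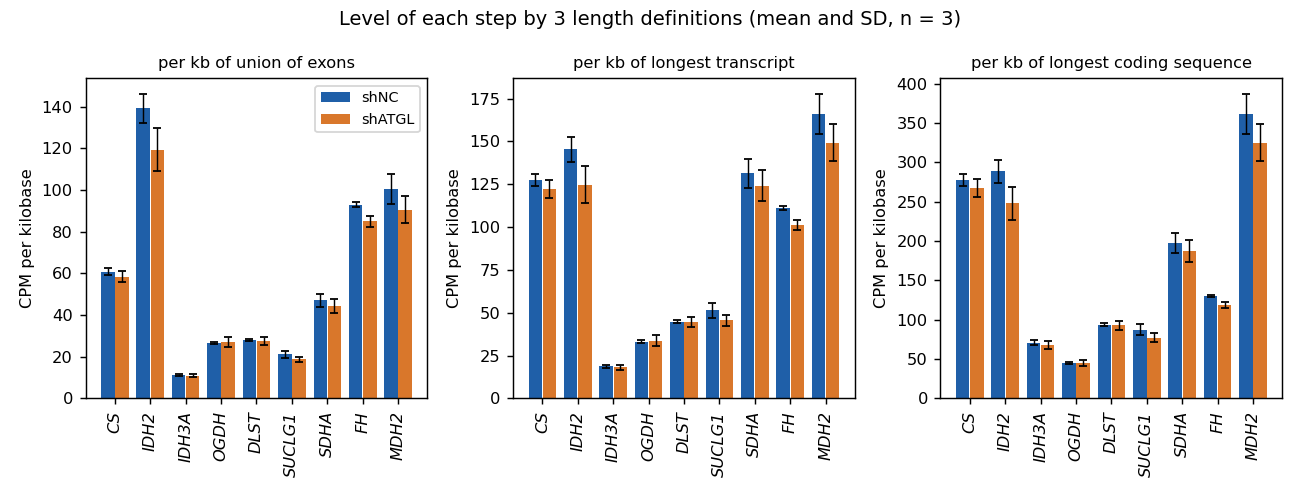
Mean level per kilobase of the 9 genes in shNC (blue) and shATGL (orange) libraries, for the union of exons, the longest transcript and the longest coding sequence, with bars starting at 0 and error bars of 1 SD (n = 3). IDH3A, OGDH, DLST and SUCLG1 are the lowest bars in each panel.

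The balance of the 9 steps within a library differed slightly between the groups. IDH2 made up 26.0, 26.3 and 26.7% of the summed per-kilobase level in shNC and 24.4, 24.5 and 25.4% in shATGL, so its share was lower in every shATGL library. The shares of CS (11.4 to 11.7% in shNC, 11.8 to 12.3% in shATGL), OGDH (4.92 to 5.18% and 5.36 to 5.73%) and DLST (5.003 to 5.52% and 5.62 to 5.88%) were higher in every shATGL library. The other 5 shares overlapped between groups. For IDH2, CS, OGDH and DLST the exact permutation p was 0.1, the smallest possible. In CPM, which is another measure, groups did not overlap for 17.3% of all genes. Such shares were not computed for other genes. Shares in a library sum to a fixed total, so a lower share of IDH2 raises the others. The fitted levels of CS and DLST were below those in shNC (log2 fold change -0.06 and -0.02). Across all genes the log2 fold change had a Spearman correlation of 0.44 with coding length, as a description, since genes are not independent replicates. With the trends of exon length and GC content removed, IDH2 stood at -0.21 and OGDH at -0.0021 on the log2 scale, and with those of coding length and GC content removed, at -0.21 and -0.09. The part of length in the shares was not tested.

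The other subunits and isoforms of the same reactions were 14 genes, all of them tested. Of these, 11 were lower in shATGL and 3 higher, with a median log2 fold change of -0.13. None passed an adjusted p under 0.05 by edgeR or DESeq2, and 5 did by limma voom (MRPS36, SDHB, SDHC, SDHD and MDH1, all lower), beside 10.8% of all genes. At an unadjusted p under 0.05 edgeR counted 5, all lower, beside 5.94% of all genes. Those 5 were MRPS36 (-0.39), a small subunit that recruits the E3 component to the 2-oxoglutarate dehydrogenase complex, SDHC (-0.27) and SDHD (-0.19), the membrane anchors of complex II, MDH1 (-0.19), the cytosolic malate dehydrogenase, and IDH3G (-0.14), a regulatory subunit of the NAD-dependent isocitrate dehydrogenase. With trends of coding length and GC content removed, edgeR counted 1 of the 14, beside 2121 of 19149 genes.

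SDHC was measured at 153, 143 and 161 CPM in shNC and at 118, 117 and 144 CPM in shATGL, with shATGL 3 within the shNC range. SDHD stood at 128, 127 and 132 CPM in shNC and 108, 107 and 125 CPM in shATGL, all lower. SDHB, the iron-sulfur subunit, stood at 124, 120.2 and 141 CPM in shNC and 99.9, 103 and 124 CPM in shATGL (log2 fold change -0.24, adjusted p = 0.428 by edgeR). The 3 small subunits of complex II thus had lower fitted values than its flavoprotein SDHA (-0.08), though the differences among the subunits were not tested. The longest coding sequences of SDHB, SDHC and SDHD are 840, 507 and 477 bases, beside 1992 for SDHA. The part of coding length in this contrast was not tested.

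MDH1 stood at 380.0, 378 and 392 CPM in shNC and 327, 335 and 348 CPM in shATGL, and MRPS36 at 13.6, 13.7 and 16.0 and at 10.1, 10.8 and 12.2 CPM. IDH3G stood at 88.4, 88.2 and 89.7 CPM in shNC and 79.9, 81.7 and 80.5 CPM in shATGL. All 3 genes were lower in every shATGL library than in every shNC library. With SDHD they made 4 of the 14, beside 9.38% of all genes. ACO1 of the cytosol stood closer to the shNC level, at 39.3 to 42.7 CPM in shNC and 37.2 to 46.1 CPM in shATGL. The cytosolic IDH1 ranged from 131 to 140.3 CPM in shNC and 127 to 135 CPM in shATGL, IDH3B from 60.8 to 72.5 and 55.7 to 64.8 CPM, and SUCLG2, the GTP-linked beta subunit of succinyl-CoA ligase, from 44.9 to 48.5 and 39.8 to 48.9 CPM. OGDHL, the paralog of OGDH, was the least expressed, at 4.24 to 5.12 CPM in shNC and 4.46 to 5.34 CPM in shATGL.

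DLD, SUCLA2 and OGDHL were the 3 of these 14 genes whose lowest shATGL value was in shATGL 3, as it was for 39.9% of all genes. DLD, the dihydrolipoamide dehydrogenase that the pyruvate and 2-oxoglutarate complexes share, was at 123, 131 and 115 CPM in shNC, at 162 and 162 CPM in shATGL 1 and 2, and at 98.0 CPM in shATGL 3. SUCLA2, the ATP-linked beta subunit of succinyl-CoA ligase, was at 34.0, 38.2 and 29.7 CPM in shNC, at 49.6 and 45.7 CPM in shATGL 1 and 2, and at 23.5 CPM in shATGL 3. DLD and SUCLA2 were above all shNC libraries in shATGL 1 and 2 and below them in shATGL 3, so the fitted differences over all libraries were small for their errors (0.20 with a standard error of 0.18, and 0.22 with 0.26). Without shATGL 3 both were higher, DLD at 0.40 (adjusted p = 0.00829 by edgeR) and SUCLA2 at 0.49 (adjusted p = 0.0232). In the same fit SDHB, SDHC, SDHD, MDH1 and MRPS36 were lower at an adjusted p of 0.00909 to 0.0367, which makes 7 of the 14 past the threshold beside 14% of all genes.

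**Figure D4:**
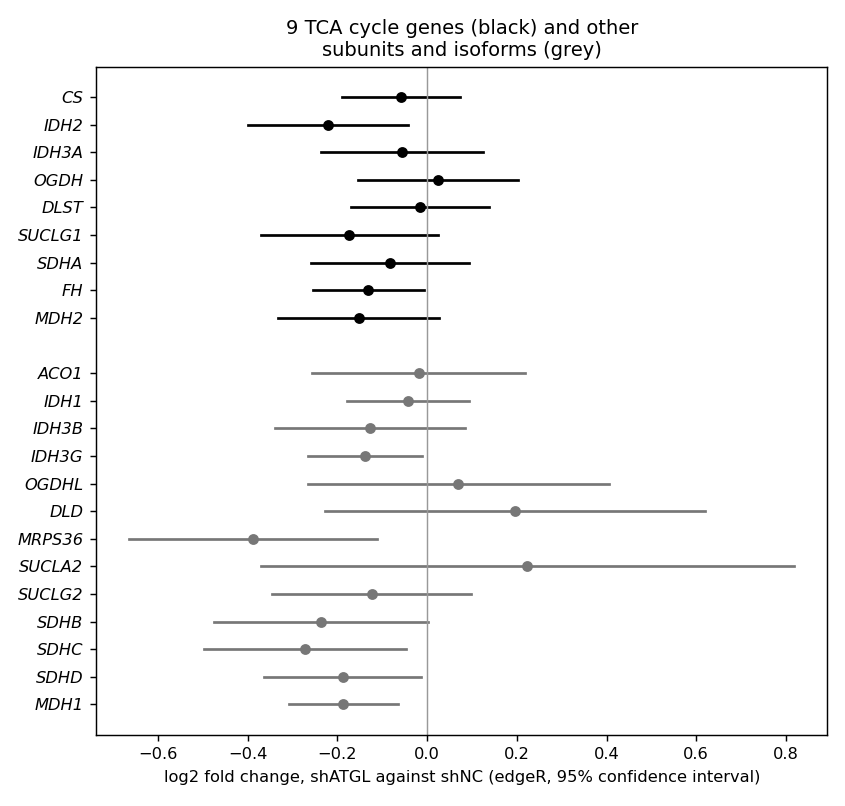
Log2 fold change of shATGL against shNC for the 9 genes (black) and 13 of the 14 other subunits and isoforms (grey), with 95% confidence intervals from edgeR. All 9 black points lie between -0.22 and 0.02, and the widest intervals are those of DLD and SUCLA2.

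The neighbouring steps were described by 3 further lists. Of 14 genes of pyruvate entry (carriers, the pyruvate dehydrogenase complex and its kinases and phosphatases, and pyruvate carboxylase), 10 were lower and 4 higher, with a median of -0.03. At an unadjusted p under 0.05, the level of 11.7% of all genes, there were 2, MPC2 (-0.20), a subunit of the mitochondrial pyruvate carrier, and PDHB (-0.18), the beta subunit of the E1 enzyme. With trends of coding length and GC content removed there were 0. The furthest from 0 was PDK4 at 0.31, a kinase gene at only 0.571 to 0.69 CPM in shNC and 0.688 to 0.81 CPM in shATGL (adjusted p = 0.65 by edgeR). Of 15 genes of exchange with the cytosol and amino acids, 12 were lower, with a median of -0.09, and 1 was at an unadjusted p under 0.05, GLUD1 (-0.18), the glutamate dehydrogenase that feeds 2-oxoglutarate. GOT1, the cytosolic aspartate aminotransferase, was furthest from 0 in that list at -0.19 (adjusted p = 0.56 by edgeR). Of 7 genes of cofactor supply and assembly, 6 were lower, with a median of -0.21. SDHAF3 (-0.37), an assembly factor of complex II, was the 1 at an unadjusted p under 0.05, and LIPT2 (-0.33), which transfers octanoate in lipoate synthesis, came next. Over the 50 genes of these 3 lists and the other subunits 39 were lower, beside 48.1% of all genes, and 11 higher. Of them 9 were lower and 0 higher at an unadjusted p under 0.05 in edgeR, beside 5.94% and 5.77% of all genes. At that level DESeq2 counted 6 of the 50, beside 12.7% of all genes. With trends of coding length and GC content removed, edgeR counted 3 of the 50, beside 2121 of 19149 genes. The part of coding length was not tested. In the main edgeR fit none passed an adjusted p under 0.05. By DESeq2 none passed either, and by limma voom 11 did, all of them lower, beside 10.8% of all genes. Without shATGL 3 edgeR counted 13 of the 50 at an adjusted p under 0.05, 2 in each of the 3 lists and 7 among the other subunits, beside 14% of all genes, and 23 at an unadjusted p under 0.05, beside 28.8%. Groups did not overlap for 14 of the 50, 13 lower and 1 higher, beside 9.38% and 7.93% of all genes.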

How the data were processed

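RNA-seq was performed on 3 shNC and 3 shATGL libraries of MV4-11 cells. The authors deposited whole-number read counts per gene, not normalized, in 1 table of 61806 Ensembl identifiers. The study's methods give paired-end reads cleaned with FASTP, and the aligner, the counter and its strand setting were not given in the sources used here. The submitters' processing notes name the mouse build mm10, whereas the identifiers are human, so coordinates and gene lengths were taken from GENCODE 29 (GRCh38), which holds 58254 of the identifiers. The labels describe RNA extraction with 2 different reagents and an amplification step, and the depth of 59674064 to 74808280 counts sets the counting error only. Every row of the table carried a gene identifier, 61804 of which matched a gene name, and 0 columns were left unused.

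The counts were fitted with edgeR 4.0.16 under R 4.3.3 (TMM normalization, filterByExpr with a minimum count of 10 and total of 15, quasi-likelihood test), with Benjamini-Hochberg adjustment over all 19149 genes tested. A gene was called where its adjusted p was under 0.05 and its fold change was 2 or more. CPM values are counts scaled to the TMM-adjusted library size. Single values were compared by a two-sided exact permutation test over 20 relabellings, on log2 CPM for genes and on percentages for the shares. The smallest p of this test is 0.1. DESeq2 1.42.0, limma 3.58.1 (voom with quality weights), other normalizations and filters, the replicate number as a block, removal of trends with length and GC content by splines with 4 degrees of freedom, and omission of each library were alternatives. The edgeR and length-trend steps were tested on simulated data. Replicate numbers were not taken to pair libraries in the main fit, as the labels name no pairing. Same-numbered libraries deviated together with r of 0.06, 0.23 and 0.34, for numbers 1, 2 and 3. Libraries of unlike number had r of -0.29 to 0.19. Whether libraries of the same number share a batch was not tested.

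The 9 genes and the 4 wider lists were chosen with earlier results of these data known. Genes named are PNPLA2, the 9, all other subunits and isoforms, genes of the other lists at an unadjusted p under 0.05 and up to 2 per list with the largest difference, numbered pseudogenes, and the 3 genes most like the mean of the 9. The single values of 1 gene of the other subunits and isoforms are not reported here, though counts and medians of that list include it.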

Additional observations from a re-analysis of the deposited data

How the results depend on the processing

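The median log2 fold change of the 9 TCA cycle genes stayed below 0 under all 15 alternatives, and CS, IDH2, SUCLG1, SDHA, FH and MDH2 kept their sign in each. The median over all genes tested moved too, from -0.051 to 0.041. It was lowest with exon length and GC trends removed, where the median of the 9 was -0.141. The number of genes called was 3 with upper-quartile normalization, 23 with DESeq2, 266 with limma voom, 0 with the replicate block and 0 to 319 with 1 library left out (319 without shATGL 3). Of the 9, the number at an adjusted p under 0.05 was 2 with limma voom (IDH2 and FH) and 0 to 2 with 1 library left out (2 without shATGL 3). The number at an unadjusted p under 0.05 was 1 with upper-quartile normalization, 1 with DESeq2, 4 with limma voom, 4 with the replicate block, 1 with trends of exon length and GC content removed, and 0 to 5 with 1 library left out. It was 5 without shATGL 3 and 0 without shNC 3, shATGL 1 or shATGL 2. The cause was not tested. Under the replicate block 16.6% of all genes were at that level. OGDH reversed to -0.036 with limma voom, to -0.0021 with exon length and GC trends removed and to -0.0923 with coding length and GC trends removed, an alternative chosen after seeing the data. There DLST reversed to 0.0105 and OGDHL to -0.0533. With 1 library left out, log2 fold changes ran from -0.0488 to 0.0835 for OGDH, -0.0691 to 0.0278 for DLST, -0.0119 to 0.1452 for OGDHL, -0.1315 to 0.0339 for ACO1, -0.1156 to 0.0005 for IDH3A and -0.024 to 0.0327 for PNPLA2. The span from the highest to the lowest per-kilobase level was 8.83 times by the longest transcript, 8.13 times by the longest coding sequence and 10.9 times in shATGL. With 3 libraries a group, the smallest exact permutation p is 0.1.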
